A study of Mus musculus with 12 samples.

Results

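The 8 E2F genes (E2f1 to E2f8), Foxm1 and Mybl2 encode transcription factors that turn on or repress genes of DNA synthesis and cell division. Their transcripts were measured in livers given human apolipoprotein F (hApoF) against livers given green fluorescent protein (GFP). The members were set by name, as the probe sets of the array whose annotation lists exactly 1 gene symbol, that symbol being one of these 10. All 10 genes were found, of 22180 genes in all, with 11 probe sets between them. Mybl2 has 2 probe sets and each of the others has 1. The 6 hApoF livers (replicates 7 to 12) came from male C57BL6/J mice injected through the tail vein with the Ad5 adenovirus Ad-hApoF. The 6 GFP livers (replicates 1 to 6) came from mice of the same strain and sex given Ad-GFP. In both groups the mice were 8 to 10 weeks old and were killed 4 days after the injection, in the afternoon and after 6 h of fasting. ApoF is a protein of plasma lipoproteins, and the question is what the liver's transcripts do when the human form is made there. Both groups carried an adenovirus, livers without one were not analysed here, and the labels give neither the dose, the share of cells infected nor the viral genes the vectors keep.

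E2F proteins bind DNA as dimers with a DP partner, coded by Tfdp1 or Tfdp2, except for E2F7 and E2F8, which bind without one. E2F1, E2F2 and E2F3 are mainly activators that the retinoblastoma protein holds back until cyclin-dependent kinases release them, E2F4 and E2F5 work mainly as repressors with the related pocket proteins p107 and p130, and E2F6, E2F7 and E2F8 repress without a pocket protein. FOXM1 and B-MYB, the product of Mybl2, act later and switch on the genes of mitosis, B-MYB as part of a complex with the MuvB core. In mouse liver, E2f7 and E2f8 are known for their part in the polyploidy of hepatocytes and Foxm1 for hepatocyte division after loss of liver mass. The name E2F comes from a promoter of adenovirus on which the factor was first found.

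Values are log2 RMA levels, so that a difference of 1 is a doubling, and array medians over all probe sets lay between 4.93 and 5.03. Upper quartiles lay between 6.668 and 6.726 in hApoF arrays. They were 6.673 in GFP 4 and between 6.734 and 6.814 in the other GFP arrays. Whether every array stands for a separate animal is not in the labels, so that p-values speak only for the spread among the 12 arrays, which may be technical. GFP 4 stood apart from the other GFP arrays in being the lowest of them for 7 of the 10 genes. Array weights estimated over all genes were lowest for hApoF 12 (0.54) and GFP 4 (0.63), and 1 alternative left out both arrays. Without both, 6 of the 10 genes were lower, E2f3 being the one added. All 6 hepatocyte marker genes were measured, and their mean level lay between 12.50 and 12.59 in hApoF livers and between 12.39 and 12.54 in GFP livers. For this mean level, 5 of the 6 hApoF livers lay above the highest GFP liver. In the limma fit 0 of the 6 genes were called, and 2 had an unadjusted p under 0.05.

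Of the 10 genes 5 fell, 0 rose and 5 did not pass the test in hApoF livers (limma across all genes, Benjamini-Hochberg adjusted p under 0.05), where 4.8% of all genes were called lower and 2.11% higher. The fallers were the atypical repressors E2f8 and E2f7, the mitotic activator Foxm1, the activator E2f1 and the repressor E2f6. Here and below, a fall or rise is a level in hApoF livers relative to GFP livers. Which group moved cannot be told without livers free of virus. E2f8 was 2.54-fold lower, Foxm1 1.86-fold, E2f7 1.63-fold, E2f1 1.36-fold and E2f6 1.26-fold. In a fit of only the 11090 genes above the median level, which held 8 of the 10, 1415 genes were called lower. The median log2 change of the 10 genes was -0.32, against 0.03 for all genes. In bulk liver, fewer cells of a type and less RNA per cell cannot be told apart. Without GFP 2, GFP 3, GFP 5, GFP 6 or hApoF 9 only E2f7, E2f8 and Foxm1 passed, a count of 3.

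**Figure D1:**
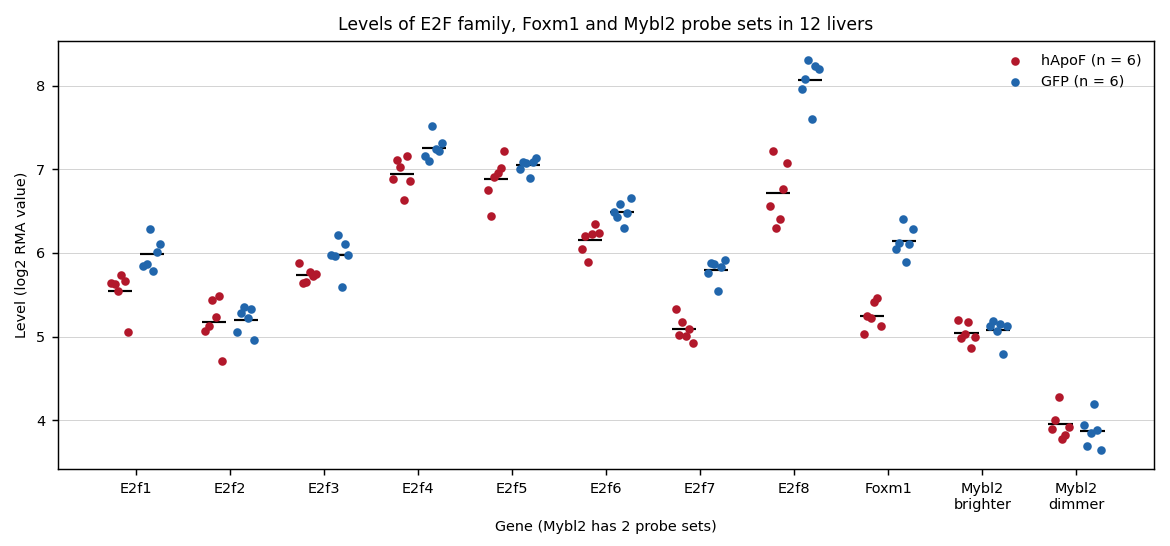
Level of each member probe set (vertical axis, log2 RMA value) in each of 12 livers, 1 point per array, hApoF in red and GFP in blue, with a black bar for the group mean. The groups are apart for E2f8, E2f7, Foxm1 and E2f1, while the points of E2f2 and of both Mybl2 probe sets are mixed.

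E2f8, an atypical E2F with a tandem DNA-binding domain that represses E2F targets late in S phase, had the largest change of the 10. Its levels were 6.56, 7.22, 6.30, 6.41, 6.77 and 7.07 in hApoF 7 to 12, against 7.96, 8.08, 8.30, 7.60, 8.24 and 8.20 in GFP 1 to 6. The highest hApoF liver, hApoF 8, stayed below the lowest GFP liver, GFP 4, so the groups did not overlap. Across all genes 3.49% had no overlap with hApoF lower and 1.49% none with hApoF higher, and among the 10 the first held for 4 (E2f1, E2f7, E2f8 and Foxm1). The mean level of E2f8 was 6.72 ± 0.37 in hApoF livers and 8.07 ± 0.26 in GFP livers (SD, n = 6 each), a log2 change of -1.34 (SE 0.16, limma adjusted p = 7.9e-05). The spread among hApoF livers was wide, with hApoF 8 and hApoF 12 above the other 4.

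E2f7, the partner of E2f8 in structure and function, fell less. It measured 5.33, 5.02, 5.17, 5.001, 5.09 and 4.93 in hApoF 7 to 12 and 5.75, 5.88, 5.87, 5.54, 5.83 and 5.92 in GFP 1 to 6. All 6 hApoF livers lay below GFP 4, the lowest GFP liver. The means were 5.09 ± 0.14 in hApoF livers and 5.80 ± 0.14 in GFP livers (SD, n = 6 each), a log2 change of -0.71 (SE 0.08, limma adjusted p = 9.4e-05). The hApoF levels were close to the array medians.

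Foxm1 codes for the forkhead factor that drives the mitotic genes. Its levels were 5.03, 5.24, 5.23, 5.41, 5.46 and 5.12 in hApoF 7 to 12, against 6.04, 6.12, 6.40, 5.89, 6.10 and 6.29 in GFP 1 to 6. Here too every hApoF liver was below every GFP liver. The log2 change was -0.89 (SE 0.10, limma adjusted p = 4.3e-05), from means of 5.25 ± 0.17 in hApoF livers and 6.14 ± 0.18 in GFP livers (SD, n = 6 each). Exact two-sided permutation tests over the 924 assignments of arrays gave p = 0.0022 for each of Foxm1, E2f7, E2f8 and E2f1, the smallest p they can give.

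E2f1, the best known activator of the entry into S phase, had levels of 5.64, 5.63, 5.54, 5.73, 5.66 and 5.05 in hApoF 7 to 12 and of 5.84, 5.87, 6.29, 5.78, 6.02 and 6.11 in GFP 1 to 6. The groups did not overlap, but hApoF 10 and GFP 4 were only narrowly apart, and hApoF 12 was far below the other hApoF livers. The log2 change was -0.44 (SE 0.12, limma adjusted p = 0.033), with means of 5.54 ± 0.25 in hApoF livers and 5.98 ± 0.19 in GFP livers (SD, n = 6 each). Without hApoF 12 the change was -0.34 and still passed. The call was lost without GFP 2 (limma adjusted p = 0.0501), GFP 3 (0.078), GFP 5 (0.060), GFP 6 (0.077) or hApoF 9 (0.059).

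E2f3, another activator of S phase genes, did not pass. It measured 5.88, 5.64, 5.66, 5.78, 5.72 and 5.75 in hApoF 7 to 12, against 5.97, 5.96, 6.22, 5.59, 6.10 and 5.98 in GFP 1 to 6. GFP 4 lay below all 6 hApoF livers, and the other 5 GFP livers lay above all of them. The log2 change was -0.23 (95% interval -0.43 to -0.04, limma adjusted p = 0.158). Leaving out GFP 4 made it pass (-0.31, limma adjusted p = 0.018), as did leaving out both GFP 4 and hApoF 12 (-0.31, 0.024).

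The third activator, E2f2, differed by less than its spread. Its levels were 5.06, 5.13, 5.44, 5.24, 5.49 and 4.71 in hApoF livers 7 to 12 and 5.05, 5.29, 5.35, 5.23, 5.33 and 4.96 in GFP livers 1 to 6. Both the lowest and the highest of the 12 values were hApoF livers. Its log2 change was -0.02 (95% interval -0.28 to 0.23, limma adjusted p = 0.938). The group means of E2f2, 5.18 in hApoF and 5.20 in GFP livers, were close to the array medians. Whether its probe set would respond at such levels was not tested.

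Of the pocket protein-dependent repressors, E2f4 measured 6.89, 7.12, 7.03, 6.64, 7.15 and 6.86 in hApoF 7 to 12 and 7.16, 7.10, 7.51, 7.24, 7.22 and 7.32 in GFP 1 to 6. In 4 of 6 hApoF livers it was below the lowest GFP liver, and the other 2 lay between GFP 2 and GFP 1. The log2 change was -0.31 (95% interval -0.52 to -0.11, limma adjusted p = 0.064; exact permutation p = 0.0087). At an adjusted p under 0.1, where 7.06% of all genes were lower, E2f4 was the sixth gene called. It passed the usual threshold without hApoF 11 (limma adjusted p = 0.046), when dim genes were left out (0.029 and 0.043) and with trend and robust settings (0.039). E2f5, the other repressor of this kind, had levels of 6.76, 6.45, 6.91, 6.95, 7.02 and 7.22 in hApoF 7 to 12 and 7.01, 7.09, 7.08, 6.90, 7.09 and 7.13 in GFP 1 to 6. The hApoF livers spread on both sides of the GFP livers. The log2 change of E2f5 was -0.16 (95% interval -0.39 to 0.06, limma adjusted p = 0.404).

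E2f6 lacks the transactivation and pocket-binding regions and works within a Polycomb-type complex. Its levels were 6.04, 6.20, 5.90, 6.23, 6.35 and 6.24 in hApoF 7 to 12, against 6.49, 6.43, 6.58, 6.30, 6.47 and 6.65 in GFP 1 to 6. Only hApoF 11 reached into the GFP range, where it stood above GFP 4. The log2 change was -0.33 (SE 0.09, limma adjusted p = 0.031; exact permutation p = 0.0043), with means of 6.16 ± 0.16 in hApoF livers and 6.49 ± 0.12 in GFP livers (SD, n = 6 each). This call was lost in 7 of 12 fits without 1 array, namely without GFP 1 (limma adjusted p = 0.060), GFP 2 (0.053), GFP 3 (0.074), GFP 5 (0.054), GFP 6 (0.077), hApoF 7 (0.068) or hApoF 9 (0.065).

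Mybl2, whose product B-MYB activates mitotic genes together with FOXM1, did not pass in either probe set. The brighter one (17379206) measured 5.20, 4.98, 5.03, 5.17, 4.87 and 4.996 in hApoF 7 to 12 and 5.13, 5.18, 5.07, 5.15, 4.79 and 5.12 in GFP 1 to 6. For this one the log2 change was -0.03 (95% interval -0.21 to 0.15, limma adjusted p = 0.866). The dimmer one (17394003) lay between 3.78 and 4.27 in hApoF livers and between 3.64 and 4.19 in GFP livers, with a change of 0.08 (95% interval -0.14 to 0.31, limma over all probe sets, adjusted p = 0.737). The group means of the brighter probe set were close to the array medians and those of the dimmer one below them, and whether either would respond at such levels was not tested. Of its 2 paralogs, Myb, coding for c-MYB, had a log2 change of -0.08 (limma adjusted p = 0.779). Mybl1, coding for A-MYB, had a mean of 5.19 ± 0.36 in hApoF livers and 6.66 ± 0.51 in GFP livers (SD, n = 6 each). Mybl1 fell 2.77-fold (log2 change -1.47, SE 0.21, limma adjusted p = 4.7e-04), and the differences between the changes of these paralogs were not tested.

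**Figure D2:**
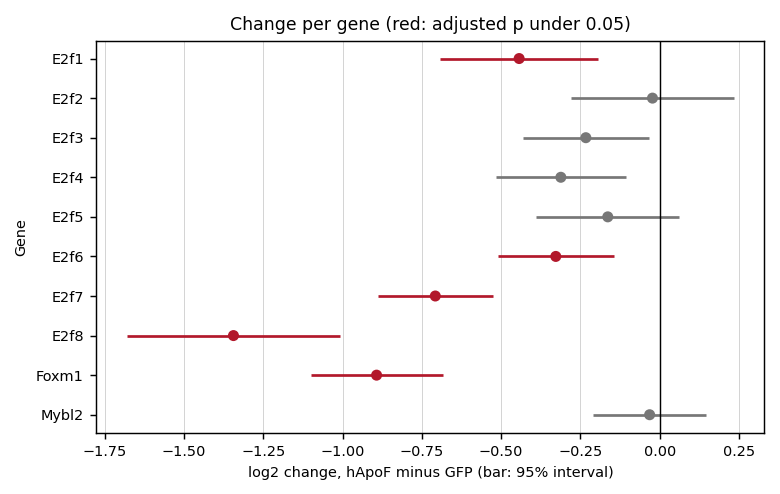
Log2 change of each member (horizontal axis, hApoF minus GFP), with the 95% interval of the limma fit as a bar. Red points mark the 5 genes with an adjusted p under 0.05, and E2f8 at -1.34 lies farthest from 0.

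**Figure D3:**
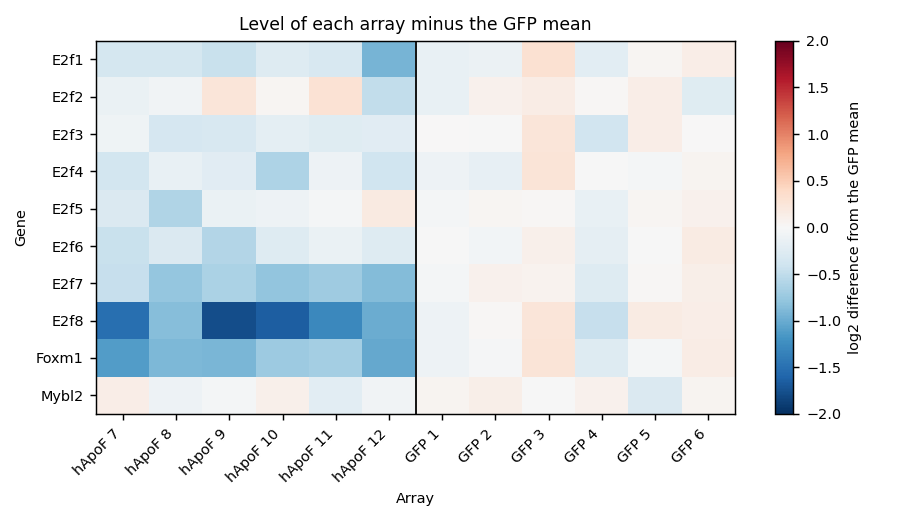
Level of each gene (rows) in each array (columns, hApoF 7 to 12 and then GFP 1 to 6) minus the mean of the GFP arrays, in log2 units, with blue for lower and red for higher. The row of E2f8 is the darkest in hApoF 7, 9, 10 and 11, that of Foxm1 in hApoF 8 and 12, GFP 4 is pale blue in most rows, and the rows of E2f2 and Mybl2 hold both colours in the hApoF arrays.

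The changes were unequal within the family. All 45 pairs of the 10 genes were compared through the difference of their log2 levels within each array, tested by exact permutation (two-sided), with p-values adjusted over the pairs, and 22 pairs differed. E2f8 fell more than each of the other genes except Foxm1, with a difference of -0.45 from Foxm1 (exact permutation, adjusted p = 0.082). It fell more than its paralog E2f7 by 0.64 (SE 0.20, exact permutation, adjusted p = 0.024). Foxm1 fell more than 7 genes, among them E2f1, from which it differed by 0.45 (SE 0.10, exact permutation, adjusted p = 0.0065), and E2f7 more than 5. E2f1 fell more than E2f2, with a difference of -0.42 (SE 0.12, exact permutation, adjusted p = 0.011), and more than Mybl2, with one of -0.41 (SE 0.15, exact permutation, adjusted p = 0.044). Among E2f2, E2f3, E2f4, E2f5, E2f6 and Mybl2 no pair passed. Probe sets can differ in how steeply they respond, which a comparison of their changes does not take out. The test was chosen after the values were seen.

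**Figure D4:**
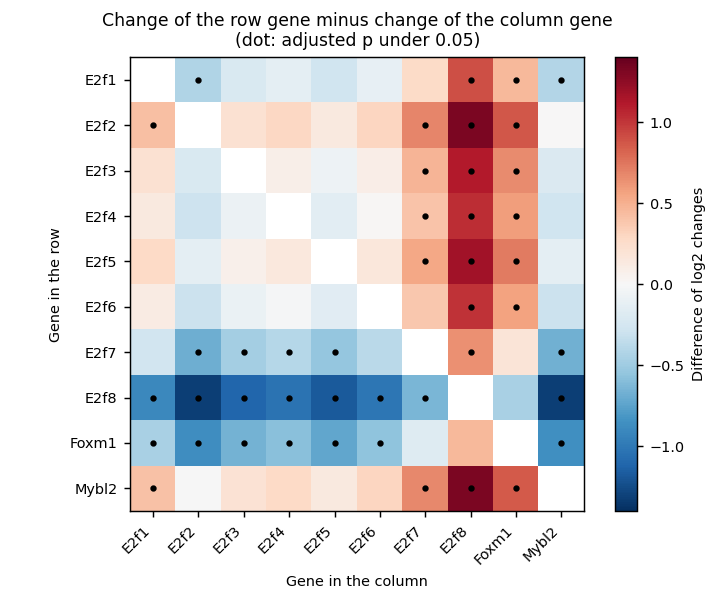
Log2 change of the gene in the row minus that of the gene in the column, for all 45 pairs (each shown in both directions), with a dot where the exact permutation test passed after adjustment. The rows of E2f8, Foxm1 and E2f7 are blue and dotted against most other genes, for 8, 7 and 5 of the other 9.

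The genes also differed in how single livers departed from their group's mean. With group means taken out, the deviations of Foxm1 over the 12 arrays went with those of E2f1 (Pearson r = 0.68) and E2f6 (0.68). Those of E2f3 went with E2f7 (0.66), and those of E2f6 with E2f8 (0.65). All were picked as the highest of the 45 pairs. E2f7 and E2f8 had an r of 0.05, a value that 12 arrays fix only loosely. Such values describe these arrays, which share all their technical variation. The genes whose deviations were most like those of E2f8 were Camsap2 (r = 0.96), Mir883a (0.95) and Dyrk1a (0.93), and for Foxm1 they were Trim28 (0.97), Senp1 (0.97) and Clpb (0.95). For E2f7 they were Galns (0.93), Twf1 (0.92) and Cep112 (0.92), for E2f1 Ubac2 (0.95), Mbtps1 (0.94) and Rnf11 (0.94), and for E2f6 Ugt2b34 (0.94), Ccr2 (0.93) and Usp32 (0.93). Each is the highest of a search over all named genes, predicted genes left out.

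Promoter letters were read for the members because E2F genes are themselves known targets of E2F and of MuvB complexes. RefSeq windows (GRCm38.p6) from 250 bases before to 50 bases after the start were at hand for 7 of the 10 genes (E2f1, E2f2, E2f3, E2f6, E2f7, E2f8 and Mybl2), in 9 windows. Searched on both strands were the E2F octamers TTTGGCGC, TTTCGCGC, TTTGCCGC and TTTCCCGC, the CHR hexamer TTTGAA bound by MuvB, and the pentamer CCAAT bound by NF-Y. A looser E2F heptamer (TT, then 2 letters that are C or G, then CG, then C or G), which each octamer contains, was added after the letters were seen. Of all 32851 promoter windows 2.26% held an octamer, 17.8% a heptamer, 17.9% a CHR and 37.4% a CCAAT. The 250 bases before the start are shown for E2f7 and E2f8, which fell, and for E2f3 and Mybl2, which did not pass, with every match in capitals.
E2f7 (chr10:110745189-110745438, plus strand): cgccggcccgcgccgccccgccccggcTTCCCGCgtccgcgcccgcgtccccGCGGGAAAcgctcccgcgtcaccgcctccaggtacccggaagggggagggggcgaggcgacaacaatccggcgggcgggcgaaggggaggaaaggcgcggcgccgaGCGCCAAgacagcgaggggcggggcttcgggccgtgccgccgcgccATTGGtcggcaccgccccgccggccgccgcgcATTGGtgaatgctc
E2f8 (chr7:48881597-48881846, minus strand): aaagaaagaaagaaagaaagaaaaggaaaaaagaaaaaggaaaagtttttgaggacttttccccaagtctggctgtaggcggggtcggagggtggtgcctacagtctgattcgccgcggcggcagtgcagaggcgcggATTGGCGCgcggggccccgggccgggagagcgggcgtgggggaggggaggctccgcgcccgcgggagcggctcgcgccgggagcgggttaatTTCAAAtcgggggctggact
E2f3 (chr13:29986064-29986313, minus strand): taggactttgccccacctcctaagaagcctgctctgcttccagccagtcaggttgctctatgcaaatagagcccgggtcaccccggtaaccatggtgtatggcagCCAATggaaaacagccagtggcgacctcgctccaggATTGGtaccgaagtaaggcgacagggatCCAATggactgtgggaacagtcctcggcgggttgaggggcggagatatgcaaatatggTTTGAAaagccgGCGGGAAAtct
Mybl2 (chr2:163054385-163054634, plus strand): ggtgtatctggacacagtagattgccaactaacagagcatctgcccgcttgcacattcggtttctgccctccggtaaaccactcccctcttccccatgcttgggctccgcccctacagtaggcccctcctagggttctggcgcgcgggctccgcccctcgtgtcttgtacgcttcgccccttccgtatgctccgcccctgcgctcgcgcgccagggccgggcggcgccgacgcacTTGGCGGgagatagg

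In the E2f7 window the octamer TTTCCCGC lay on the opposite strand at -198 to -191, heptamers began at -223 and -92, and CCAAT lay on the opposite strand at -46 and -14. The E2f8 window held a CHR on the opposite strand at -20 to -15, and a CCAAT on the opposite strand at -112 that overlaps a heptamer at -111. The E2f3 window held the octamer TTTCCCGC on the opposite strand at -11 to -4, a CHR at -23, CCAAT letters at -145, -109 and -81, and heptamers after the start at 5 and 19. Mybl2 had the heptamer TTGGCGG at -15 to -9 and none of the other letters. Of the E2f2 windows, 1 had a CCAAT at -13 and the octamer TTTGGCGC after the start, at 40 to 47, with another heptamer at 26, and the other held CCAAT letters and a CHR at -31. The E2f3 window shown is 1 of 2, and the other held no match. The windows of E2f1 and E2f6 held none of these letters. Matches were found both in genes that fell and in genes that did not pass, and E2f6, which fell, had none in its window. Of the 7 genes with windows, 3 held an octamer, 5 a heptamer, 3 a CHR and 4 a CCAAT. Over all genes these shares were 2.6%, 19.8%, 20.2% and 41.1%. Whether these letters bear on the changes was not tested. The E2f1 window for most of its length, and the E2f2 window with the CHR only in its first bases, read as protein-coding letters of these genes. The CHR and CCAAT letters of that E2f2 window come after those bases. Their annotated starts thus lie inside the genes, and the lack of matches in the E2f1 window says nothing about its usual promoter.

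The partners and inhibitors of E2F came down in part. Among 10 genes of dimer partners, pocket proteins and MuvB subunits 4 fell and 0 rose, and the other 6 missed the threshold, with a median log2 change of -0.24. Rbl1, coding for the pocket protein p107, fell 2.14-fold (log2 change -1.10, SE 0.11, limma adjusted p = 3.0e-05), with means of 6.31 ± 0.17 in hApoF livers and 7.41 ± 0.25 in GFP livers (SD, n = 6 each). Tfdp1, the main DP partner, fell 1.62-fold (-0.70, SE 0.09, limma adjusted p = 1.2e-04), and neither gene's groups overlapped. Lin9, a MuvB subunit, fell by 0.45 (limma adjusted p = 0.016). Lin37, another subunit, fell by 0.27 (limma adjusted p = 0.036), a call that 9 of 12 fits without 1 array and 2 other settings lost. The retinoblastoma gene Rb1 had a change of -0.30 (limma adjusted p = 0.062), and Rbl2, coding for p130, one of 0.13 (0.288). Tfdp2 had a change of -0.03 (limma adjusted p = 0.902).

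The G1 list held 15 measured cyclins, kinases and inhibitors, most of which, though not Ccna2, set E2F activity in G1. Of these genes 7 fell and 2 rose, the other 6 missing the threshold. Ccne1, cyclin E1, fell 2.33-fold (log2 change -1.22, SE 0.13), Cdk2, its kinase, 1.76-fold (-0.81, SE 0.10), Ccna2, cyclin A2, 3.63-fold (-1.86, SE 0.17), and Cdkn1a, coding for the kinase inhibitor p21, fell 4.88-fold (-2.29, SE 0.18). The risers were Cdk6 (0.71, limma adjusted p = 0.0014) and Ccnd1 (0.66, limma adjusted p = 0.026), a kinase and a cyclin that act upstream of the retinoblastoma protein. The groups of Ccnd1 overlapped. Of the closest relatives of these risers, Cdk4 (-0.41, limma adjusted p = 0.0038) and Ccnd3 (-0.28, 0.034) fell. Ccnd2 had a change of -0.01 (limma adjusted p = 0.947). Without GFP 2, GFP 5, GFP 6 or hApoF 11 only 1 of this list rose.

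Known E2F targets of the step from G1 to S fell nearly throughout. Among the 24 genes measured 21 fell and 0 rose, while 3 missed the threshold, with a median log2 change of -0.74. Rrm1 and Rrm2, the subunits of ribonucleotide reductase, fell 3.18-fold (log2 change -1.67, SE 0.13, limma adjusted p = 7.9e-06) and 3.39-fold (-1.76, SE 0.18). Prim1, a primase subunit, fell 2.80-fold (-1.48, SE 0.15), and Mcm3, a subunit of the replicative helicase, 2.03-fold (-1.02, SE 0.11). Those that did not pass were Mcm10 (-0.24), Gins1 (-0.40) and Msh6 (-0.36). E2F octamers were in the promoter windows of 10 of the 21 genes of this list with a window, against 2.6% of all genes, and CCAAT was in 17 of them, against 41.1% of all genes.

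Genes of G2 and mitosis that FOXM1 and B-MYB are known to activate fell without exception, 21 of 21 measured, with a median log2 change of -1.55. Plk1, a mitotic kinase, had a mean of 5.94 ± 0.42 in hApoF livers and 7.95 ± 0.27 in GFP livers (SD, n = 6 each). Aurka, a spindle pole kinase, fell 3.16-fold, Nek2, a centrosome kinase, 3.11-fold, and Cdc20, which switches on the ubiquitin ligase of anaphase, 3.20-fold. The groups of these 4 genes did not overlap. Of the 18 genes of this list with a promoter window 11 held a CHR and 17 a CCAAT, where 20.2% and 41.1% of all genes did. The lists of targets were drawn up with earlier results of these data known, so their counts are no independent evidence of a direction.

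Among 5 apoptosis genes that E2F can activate 1 fell and 0 rose, with 4 missing the threshold, and 4 of the 5 had an unadjusted p under 0.05. It was Apaf1, the core of the apoptosome (log2 change -0.38, SE 0.08, limma adjusted p = 0.012), and Trp73, a p53 relative and E2F1 target, had a change of 0.27 (limma adjusted p = 0.195). The counts were 2 lower without hApoF 12 and 1 higher without GFP 4. Among 8 partners of E2F6 in its repressive complex 2 fell and 0 rose, with 6 missing the threshold, and 5 of the 8 had an unadjusted p under 0.05. Mga, its scaffold, fell by 0.46 (SE 0.10, limma adjusted p = 0.0094) and Pcgf6, a Polycomb ring finger protein, by 0.38 (SE 0.10, limma adjusted p = 0.026). Leaving out any of hApoF 8, 9 and 10 or GFP 1, 3 and 6 left 1 of them past the threshold. Of 4 germline genes that E2F6 is known to repress none passed the limma test and 0 had an unadjusted p under 0.05, and the mean levels of all 4 were below the lowest array median. The lowest p were those of Stag3 (-0.10, limma adjusted p = 0.521) and Mael (-0.14, 0.554).

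**Figure D5:**
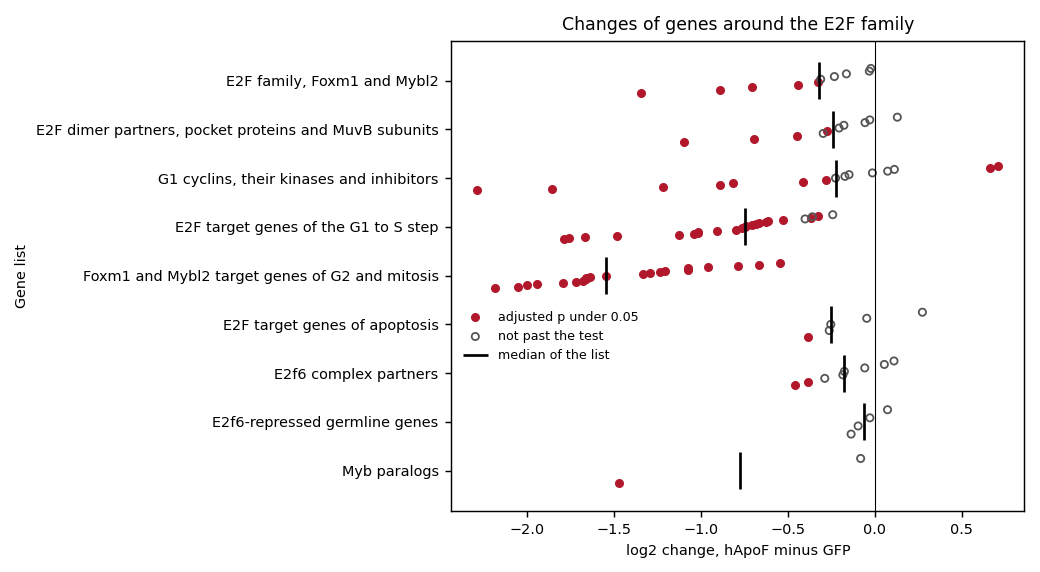
Log2 change (horizontal axis, hApoF minus GFP) of each measured gene of the family and of 8 lists around it, filled red where the limma adjusted p was under 0.05 and open otherwise, with a black bar at the list's median. The medians lie at -0.32 for the family, -0.74 for the G1 to S targets and -1.55 for the mitotic targets, and the filled points right of 0 are Cdk6 and Ccnd1.

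Markers of other liver cells were measured beside these falls. Of 7 Kupffer cell genes 2 rose, Clec4f and Vsig4, and the mean level of the list lay between 6.91 and 7.90 in hApoF livers and between 6.26 and 7.54 in GFP livers. Of 6 endothelial genes 1 rose, with mean levels of 8.52 to 8.94 in hApoF livers and 8.21 to 8.73 in GFP livers. The stellate cell list had 2 of 6 higher, at 7.58 to 7.90 in hApoF livers and 7.35 to 7.69 in GFP livers. The neutrophil list had 1 of 5 higher, at 3.90 to 4.47 in hApoF livers and 3.78 to 4.13 in GFP livers. None of 6 T and NK cell, 3 B cell, 4 erythroid and 4 bile duct genes passed the limma test, with 2, 1, 1 and 2 at an unadjusted p under 0.05, and their mean levels overlapped between the groups. In fits without 1 array the number higher was 1 to 3 for the Kupffer cell list, 1 to 4 for the endothelial and 0 to 3 for the stellate cell list. It was 0 to 1 for the neutrophil, B cell, erythroid, bile duct and hepatocyte lists and 0 for the T and NK cell list, and 0 to 1 bile duct genes were lower. Without both GFP 4 and hApoF 12 the counts higher were 3 for Kupffer cells, 2 for endothelial cells and 1 each for B and erythroid cells. Settings with all 12 arrays moved some of these counts too. Over all probe sets the number higher was 1 for Kupffer cells and 0 for stellate cells and neutrophils. With arrays centred on their medians it was 0 for stellate cells and neutrophils. Among genes above the median level it was 3 for endothelial and 4 for stellate cells. With trend and robust settings it was 1 for Kupffer and 3 for endothelial cells. The RMA scale has no zero, so that absence of a marker could not be read. The part of these cells in the levels of the E2F genes was not tested.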

How the data were processed

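Liver RNA of 12 samples, 1 array each, was biotin-labelled and hybridised to gene expression arrays. The values deposited by the authors are on a log2 scale, 1 for each probe set. Oligo and RMA (background correction, quantile normalization and median-polish summary) stand in the submitters' processing notes. The sources used here give no versions, build or filters. RMA's quantile step forces arrays toward 1 distribution, so a shift of most genes would be removed.

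The 35145 probe sets were used as deposited, and 23521 of them list 1 gene symbol in the platform annotation. Where a gene had several, the one with the highest mean over the arrays was taken, which left 22180 genes. Differences (hApoF minus GFP) were fitted with limma 3.58.1 in R 4.3.3 (lmFit, eBayes, no covariates), and p-values were adjusted by Benjamini-Hochberg over all genes, with a threshold of 0.05. The fit was tested on simulated data. Exact permutation tests, promoter searches and plots used Python 3.11.15, scipy 1.17.1, pandas 2.3.3 and matplotlib 3.10.9. The number of arrays limits the precision.

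Named are the 10 members, up to 4 called genes with the lowest p per list (or 2 where none was called), and the 3 genes most like each called member. Other genes were named after their values were seen. Members and lists were chosen with earlier results of these data known. Genes of the lists without a probe set of 1 symbol were not analysed here.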

Additional observations from a re-analysis of the deposited data

Results flagged for a closer look

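Dixon's ratio of gap to range was applied to 84 groups of 6 arrays, for the members, the marker lists and the named genes, and 7 held a value far from the others, where chance gives about 5% of groups. E2f1 was 5.05 in hApoF 12, below the 5.54 of the next hApoF liver. The brighter Mybl2 probe set was 4.79 in GFP 5, below the 5.07 of the next GFP liver. Cdc20 was 5.75 in hApoF 12, against 6.33 in the next lowest, and the mean level of the B cell markers in that liver was 5.04, the highest of its group. Mybl1 was 5.67 in GFP 4, against 6.58 in the next lowest GFP liver. Cdkn1a was 10.01 in GFP 3, and Stag3 was 5.02 in hApoF 9, each the highest of its group.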

How the results depend on the processing

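No paired analysis was possible because the groups share no replicate numbers. E2f7, E2f8 and Foxm1 passed under all 21 alternatives, with changes of -0.76 to -0.68, -1.51 to -1.26 and -0.94 to -0.84. Of the family 3 to 6 genes were lower, and 0 higher, in the fits without 1 array, and 6 were lower at a threshold of 0.1, chosen after seeing the data. Over all probe sets E2f1 had an adjusted p of 0.051. The uncalled change of E2f2 became positive with array weights (0.041) and without GFP 4 and hApoF 12 (0.076), and ranged from -0.085 to 0.071 without 1 array, being positive without GFP 3 (0.0067), GFP 5 (0.0037) or hApoF 12. That of Mybl2 became positive with the mean of its probe sets (0.025) and ranged from -0.089 to 0.0033 without 1 array. The cause was not tested. Without 1 array, 3 to 5 partner genes, 6 to 7 of the G1 list, 19 to 23 of the G1 to S targets, 21 of the mitotic targets, 1 to 2 of the apoptosis genes and 1 to 3 of the E2f6 partners were lower, and 1 to 2 of the G1 list and 0 to 1 of the apoptosis genes higher. The apoptosis count was 2 lower with array weights, trend and robust settings, or only genes above the median level. Over all genes, 748 to 1335 were lower and 254 to 653 higher without 1 array. With quantile normalization repeated, 938 genes were lower and 583 higher, against 1064 and 469 in the main fit. Of the 45 pairs 20 to 26 differed without 1 array. Without both GFP 4 and hApoF 12, 6 of the family, 6 partner genes, 6 of the G1 list and 22 of the G1 to S targets were lower. How far signal level limits what could be detected was not tested.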
